A study of Mus musculus with 24 samples.

Results

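The extracellular matrix is a meshwork of collagens, proteoglycans and adhesive glycoproteins, and most of it is made by fibroblasts, with basement membrane added by endothelial cells, pericytes and epithelia. This account concerns 44 genes of fibroblasts and extracellular matrix, which were taken by symbol from the table of raw gene counts. All 44 were found among its 53465 genes, and their levels were followed through 24 sequencing libraries, each made from natural killer (NK) cells of a mouse tumour. The tumours were B16F10, a melanoma line, grown under the skin of the flank of female wild-type B6 mice and taken at day 14. The 4 sorted populations had 6 libraries each of 100 cells. CD11b+ and CD27+ cells were each split into a CD69+ and a CD69- gate, and a population is named by its gate, as in CD27+CD69-. CD11b is an integrin chain of mature NK cells, CD27 a receptor of less mature ones, and CD69 an early activation and retention marker. All groups share the line, the host genotype and the day, and the labels name no treatment. The sample labels give melanoma as the cell type of every library, while the titles and the design text name the sorted NK populations.

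NK cells are lymphocytes and are not known as producers of fibrillar collagen or matrix proteoglycans. In skin and tumours, fibroblasts carry the receptors PDGFRA and PDGFRB and secrete type I and type III collagen, decorin and lumican. Pericytes share PDGFRB, and endothelial cells share CD34, caveolin and basement membrane genes, so that several members can come from more than 1 stromal cell type. Total counts per library ran from 1213914 to 2671533, so that 3 counts stood for 1.13 to 2.47 CPM (counts scaled to a common library size with TMM factors). Nothing in the labels ties the 6 replicates to separate animals, and p-values measure only the spread between these libraries.

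Nearly all of the members' transcripts lay in the CD27+CD69- libraries. The 44 members summed to 11043 ± 6916 CPM there (SD, n = 6), while the sums were 252 ± 184 in CD27+CD69+, 159 ± 39 in CD11b+CD69- and 122 ± 13.5 in CD11b+CD69+ libraries. This was 1.1 ± 0.679% of all counts of those libraries, while in CD27+CD69+ it was 0.0256 ± 0.0189%. In replicate order, the CD27+CD69- sums were 5966, 19421, 17697, 7427, 2141 and 13605 CPM. Replicates 2, 3 and 6 were high and replicate 5 was the lowest, yet replicate 5 stood above every library of the other populations, the highest of which was CD27+CD69+ replicate 6 at 603 CPM. A CD27+CD69- library had counts in 29 to 44 of the 44 members, and 38 members had over 90% of their level, averaged per population, in this population. There were 12 members with no count in any library outside it.

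**Figure D1:**
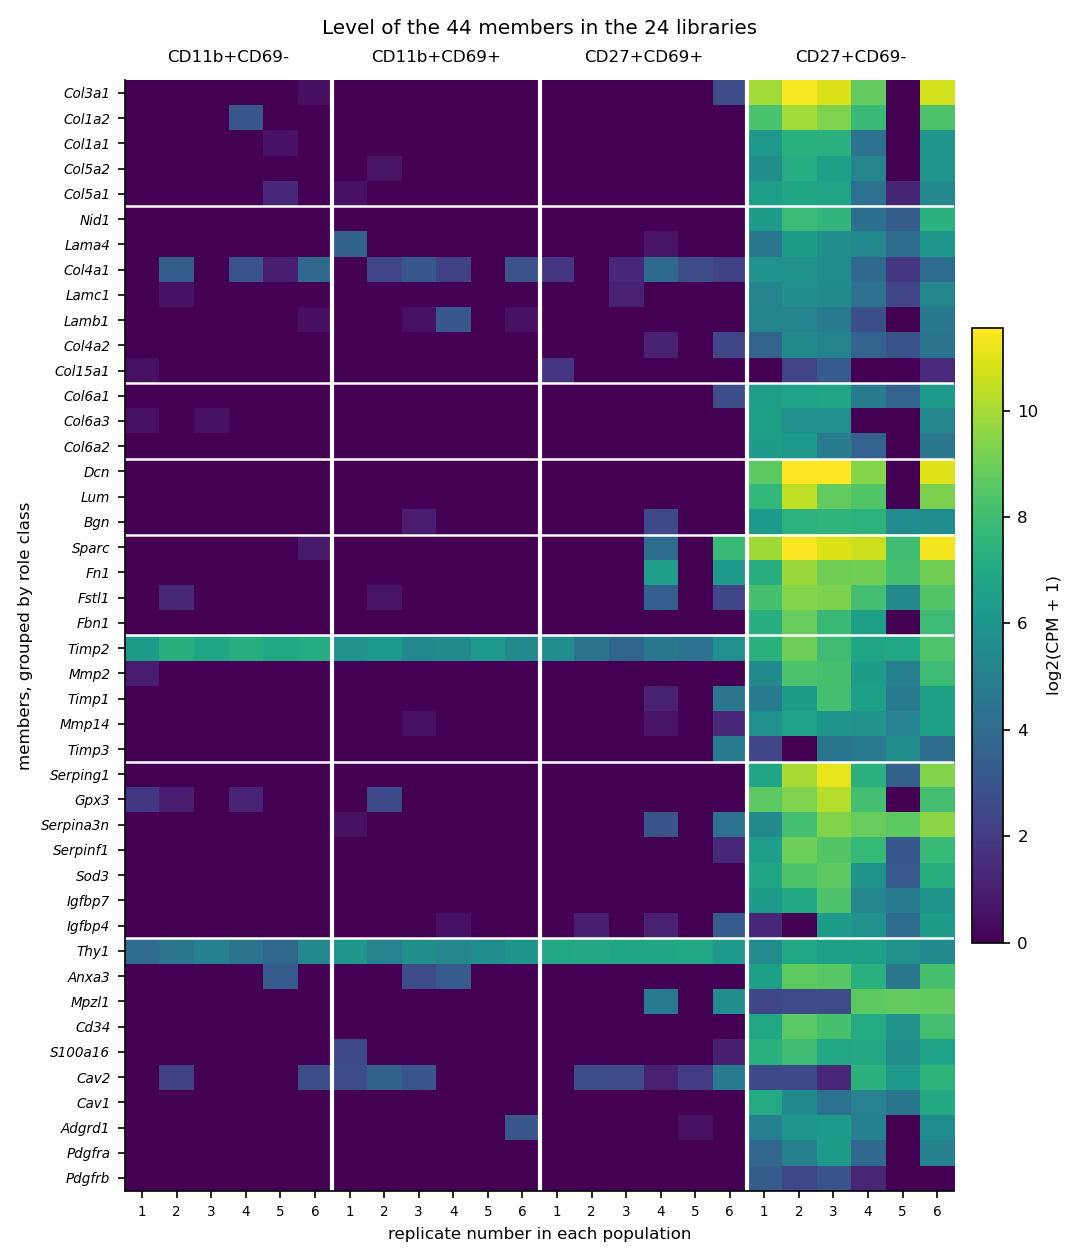
Level of each member in each library as log2(CPM + 1), with genes in rows grouped by role class and libraries in columns grouped by population and numbered by replicate. The CD27+CD69- block is bright for most genes except in replicate 5, where 15 members had 0 counts, and only Timp2 and Thy1 are visible in all 24 libraries.

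Against CD27+CD69+ libraries, which carry the same CD27 marker, 22 of the 30 members that could be tested were higher in CD27+CD69- libraries and 0 were lower. The test was edgeR's quasi-likelihood test with Benjamini-Hochberg adjustment over 10536 genes at a threshold of 0.05, and 1.28% of all genes tested were called higher. The median log2 difference was 8.34 over the 30 members and 0.02 over all genes. The filter on low counts needs a gene in 6 libraries, and 14 members missed it, among them Dcn, Lum and Col1a1, which had 0 counts in CD27+CD69- replicate 5. Members that passed only through the population where they are high had to differ, so the count carries no weight beyond these values. The same limit holds for the counts by role class below. Without the filter, 30 of 44 were higher and 1.44% of all genes. The count was larger without certain libraries. Without CD27+CD69- replicate 5 it was 33 of 39, and without CD27+CD69+ replicates 4 and 6, chosen after seeing the data, it was 34 of 42. Those 2 CD27+CD69+ libraries had the highest sums of their population, so the second count carries no weight. Over all genes, calls in either direction went from 187 of 10536 to 317 of 10838 and to 369 of 11257 in the same 2 fits, so calls outside the members changed too. In limma-voom 16 members were called, beside 280 of 10536 genes in either direction. Of the 22, 9 were not among them: Col3a1, Col1a2, Fstl1, Sparc, Serpinf1, Gpx3, Serpina3n, Sod3 and Adgrd1, with adjusted p from 0.0585 to 0.785.

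Against CD11b+CD69- libraries, the mature NK cells that also lack CD69, 29 of 30 members were higher and 0 were lower, where 7.74% of all genes tested were called higher. In limma-voom 22 of the 29 were called, beside 1344 of 10536 genes in either direction. Without the filter the count was 39 of 44, beside 6.06% of all genes. This comparison uses the same CD27+CD69- libraries, so its calls are not independent of the ones above. The tested member that did not pass was Col4a1, at a log2 difference of 2.67 (SE 1.06, adjusted p = 0.108). In RNA of sorted cells, fewer cells of a type and less RNA per cell cannot be told apart. NK cell genes (8 genes) summed to 9536 ± 1653 CPM in CD27+CD69- libraries, beside 11542 ± 1339 CPM in CD27+CD69+, with 0 of 8 past the threshold. In the same order T cell genes (8 genes) summed to 691 ± 320.1 and 1143 ± 347 CPM, and melanoma genes (9 genes) to 1089 ± 2396 and 22.4 ± 30.6 CPM. The part of these in the members' differences was not tested.

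Fibril-forming collagens, the rope-like proteins that give tissue its tensile strength, summed to 1917 ± 1489 CPM in CD27+CD69- libraries, set beside 0.955 ± 2.34 CPM in CD27+CD69+. Of the 5, the 2 that could be tested, Col3a1 and Col1a2, rose against CD27+CD69+, beside 1.28% of all genes. All 5 did so without the filter, beside 1.44%. Col3a1 (ENSMUSG00000026043, chromosome 1, 45311538 to 45349706, plus strand, GRCm38), the chain of type III collagen, had 987, 2651, 1982, 435, 0 and 1725 CPM in CD27+CD69- replicates 1 to 6. In CD27+CD69+ libraries it had 0 counts in 5 of 6 and 5.73 CPM in replicate 6. The groups overlapped only through CD27+CD69- replicate 5, which had no Col3a1 count, and the log2 difference was 10.34 (SE 1.37, adjusted p = 0.000524). Col1a2 (ENSMUSG00000029661, chromosome 6, 4504814 to 4541544, plus strand), the alpha 2 chain of type I collagen, had 303, 996, 636, 225, 0 and 323 CPM. With 0 counts in CD27+CD69+ libraries it was at least 1765-fold higher (adjusted p = 0.0117), the bound being taken with 3 counts summed over the group in place of 0. Col1a1 (ENSMUSG00000001506, chromosome 11, 94936224 to 94953042, plus strand), its alpha 1 partner, had 69.3, 166, 159.8, 20.3, 0 and 64.3 CPM and 0 counts in CD27+CD69+, at least 341-fold. It missed the filter of the main fit and passed without it (adjusted p = 0.000259). Col5a1 and Col5a2, chains of the type V collagen that sets fibril diameter, averaged 62 ± 47.5 and 64.2 ± 48.8 CPM and had 0 counts in CD27+CD69+ libraries. Col3a1 and Col5a2 lie 24614 bases apart on chromosome 1, on opposite strands.

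Levels of different genes were compared per kilobase of annotated exon. This length joins the exons of all annotated transcripts of a gene, such as 12426 bases for Col1a2 and 9816 for Col3a1. Ratios between genes and rankings therefore depend on the annotation. On that scale the Col1a1 to Col1a2 ratio was 0.171 to 0.476 in the 5 CD27+CD69- libraries with both, so Col1a2 stood above Col1a1 in each. Col3a1 was 2.45 to 6.77 times Col1a2 in the same libraries, and Col5a1 was 0.575 to 1.98 times Col5a2. The 2 leading collagen genes have unlike promoters in the RefSeq table (build GRCm38.p6, 250 bases before to 50 after a start), which held 30 of the 44 members. They are shown because both genes followed each other over the libraries, while their promoter windows share none of the searched motifs. Over the 6 CD27+CD69- libraries r was 0.993, and without replicate 5, where both had 0 counts, it was 0.856. Capitals mark 3 motifs searched on either strand: the TATA box core, spelled TATAAA, the CCAAT box, spelled as named, and the GC box core, spelled GGGCGG.
Col3a1 promoter window, chr1:45311288-45311587, plus strand: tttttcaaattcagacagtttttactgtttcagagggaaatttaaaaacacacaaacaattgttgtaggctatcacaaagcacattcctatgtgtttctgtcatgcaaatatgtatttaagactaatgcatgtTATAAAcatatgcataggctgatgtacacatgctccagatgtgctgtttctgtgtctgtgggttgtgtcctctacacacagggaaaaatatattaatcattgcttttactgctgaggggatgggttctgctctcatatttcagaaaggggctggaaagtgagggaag
Col1a2 promoter window, chr6:4505368-4505667, plus strand: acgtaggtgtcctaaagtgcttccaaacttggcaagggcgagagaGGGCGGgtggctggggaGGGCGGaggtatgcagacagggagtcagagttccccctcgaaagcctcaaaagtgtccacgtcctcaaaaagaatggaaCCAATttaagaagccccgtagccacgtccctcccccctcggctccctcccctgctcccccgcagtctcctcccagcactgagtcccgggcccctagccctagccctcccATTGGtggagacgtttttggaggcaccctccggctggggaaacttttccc
The Col3a1 window held 1 TATA box core, with a base content of 37.7% guanine and cytosine. The Col1a2 window held 2 CCAAT boxes and 2 GC box cores, at 61%. The TATA box core was found in 13.6% of all 32851 windows of this length, the CCAAT box in 37.4% and the GC box core in 35.7%. Of the 30 members with a window, 3, 12 and 20 held these motifs in that order, in any of their windows, of which there were 33. These counts are by gene, while the shares above are by window. Matches may overlap each other, and a match is a description of the sequence only. The window of Col1a2 is set by the RefSeq start, which lies inside the gene as GENCODE draws it.

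Basement membrane genes encode the sheet under endothelial and epithelial cells and around pericytes: type IV collagen, laminins and the nidogen that links them. The 7 members summed to 274 ± 177 CPM in CD27+CD69- libraries, set beside 6.12 ± 5.52 CPM in CD27+CD69+. Of the 5 tested, 3 rose, beside 1.28% of all genes. Nid1, the linker, had 81.9, 229.9, 192, 17.6, 9.44 and 167 CPM and 0 counts in every library outside this population, and was at least 496-fold higher than in CD27+CD69+ (adjusted p = 0.000705). Lama4, a laminin chain of blood vessels and other mesenchymal basement membranes, had 23.3, 82.1, 50.8, 41.9, 16.7 and 66.8 CPM and 1 count in CD27+CD69+ libraries. The ratio was 581 and the adjusted p 0.00176. Its 95% interval, from 104 to 22996, covers counting error in the pooled counts alone, without the spread between libraries. All 6 libraries of both genes lay above all CD27+CD69+ libraries. Lamb1, another laminin chain, also rose (adjusted p = 0.00726, at least 92.8-fold), and Lamc1, which missed the filter of the main fit, had an adjusted p of 0.000295 without it. Col15a1, which occurs beneath many basement membranes, had 31 counts over the 6 CD27+CD69- libraries and did not pass without the filter (adjusted p = 0.494).

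The alpha 1 and alpha 2 chains of type IV collagen did not pass against CD27+CD69+ libraries. Col4a1 had 58.1, 60.2, 47, 14.2, 2.57 and 15.7 CPM in CD27+CD69- and 2.41, 0, 1.5, 14.2, 5.37 and 3.82 CPM in CD27+CD69+ replicates 1 to 6, and the groups overlapped. Its log2 difference was 2.85 (SE 1.07, adjusted p = 0.233). It was also present at 5.13 ± 5.76 CPM in CD11b+CD69- and 3.67 ± 3.15 CPM in CD11b+CD69+ libraries, unlike Col4a2, which had 0 counts in both. Col4a2 had 11.6, 44.7, 35.7, 11.5, 6.86 and 20.6 CPM in CD27+CD69- libraries, all above the CD27+CD69+ range of 0 to 4.3 CPM, and a log2 difference of 4.53 (SE 1.23, adjusted p = 0.0731). It passed in DESeq2, in limma-voom and in a fit to the 2 populations (adjusted p = 0.0136, 0.000319 and 0.0224). It also passed without CD27+CD69+ replicates 4 and 6 (0.0109), but these held all its counts there, so that call carries no weight. Per kilobase of exon the Col4a1 to Col4a2 ratio ran from 0.333 to 4.43, highest in replicate 1. The genes stand head to head on chromosome 8, and their annotated exons share 22 bases, where reads of an unstranded library cannot be told apart. Their promoter windows, shown because they overlap by 78 bases and belong to genes that differ outside this population, read as follows.
Col4a1 promoter window, chr8:11312777-11313076, minus strand: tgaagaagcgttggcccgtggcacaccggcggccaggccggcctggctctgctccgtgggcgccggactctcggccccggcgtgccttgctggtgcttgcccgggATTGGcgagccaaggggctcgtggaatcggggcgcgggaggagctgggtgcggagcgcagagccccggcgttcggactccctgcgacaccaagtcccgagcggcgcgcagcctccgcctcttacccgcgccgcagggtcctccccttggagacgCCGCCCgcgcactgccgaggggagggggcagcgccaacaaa
Col4a2 promoter window, chr8:11312555-11312854, plus strand: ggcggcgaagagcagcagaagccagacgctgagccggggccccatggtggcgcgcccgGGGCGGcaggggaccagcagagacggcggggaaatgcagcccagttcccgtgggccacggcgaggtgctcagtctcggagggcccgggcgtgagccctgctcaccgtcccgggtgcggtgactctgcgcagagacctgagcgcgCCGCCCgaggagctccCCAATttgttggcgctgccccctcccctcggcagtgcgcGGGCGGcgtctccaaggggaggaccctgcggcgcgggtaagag
Each window is printed 5′ to 3′ on its own strand, so the shared stretch is the end of one and the reverse complement at the end of the other. The Col4a1 window held 1 CCAAT box and 1 GC box core, both on the other strand, and the Col4a2 window 1 CCAAT box and 3 GC box cores.

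Collagen VI makes beaded filaments around cells. Its 3 chains summed to 146 ± 102 CPM in CD27+CD69- libraries, set beside 0.955 ± 2.34 CPM in CD27+CD69+. Col6a1 had 89.1, 104, 109.5, 28.4, 11.6 and 75.1 CPM, all above the CD27+CD69+ libraries, and rose with a log2 difference of 6.11 (SE 1.07, adjusted p = 0.00441), a call that was lost in DESeq2 (adjusted p = 0.0626). Col6a2 had 80.9, 71.2, 28.7, 11.5, 0 and 23.9 CPM and Col6a3 had 92.5, 54.3, 54.1, 0, 0 and 38.8 CPM. Both had 0 counts in CD27+CD69+ libraries and stood at least 154-fold and 170.4-fold higher. They missed the filter of the main fit and passed without it (adjusted p = 0.00113 and 0.000785). Col6a3 was absent from replicates 4 and 5, where Col6a1 was still counted. In the 4 libraries with all chains, Col6a1 per kilobase was 2.63 to 5.53 times Col6a3, and Col6a2 0.762 to 1.88 times.

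Small leucine-rich proteoglycans bind collagen fibrils and shape them. Dcn (ENSMUSG00000019929, chromosome 10, 97479609 to 97518143, plus strand), decorin, had 399, 2989.7, 2982, 708, 0 and 2040.2 CPM and no count in any other population. Replicates 2, 3 and 6 were high, replicates 1 and 4 lower, and replicate 5 had none. Its 17244 counts against 0 put it at least 6483-fold higher than in CD27+CD69+ libraries. It missed the filter of the main fit and did not pass without it (adjusted p = 0.13). Lum, lumican, lies 46984 bases from Dcn and had 201, 1372, 431, 339, 0 and 623 CPM, with 0 counts elsewhere (at least 2109-fold, adjusted p = 0.13 without the filter). Bgn, biglycan, was present in replicate 5, at 46.8 CPM. Its values were 72.7, 174, 186, 176, 46.8 and 48.7 CPM, all above the CD27+CD69+ libraries, and it rose with a log2 difference of 7.21 (SE 0.88, adjusted p = 4.04e-05).

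Matrix glycoproteins summed to 2768 ± 1545 CPM in CD27+CD69- libraries. Per kilobase of exon, Sparc was the highest of all 44 members, with a mean level of 449.7 CPM per kilobase, followed by Serping1 at 299, Dcn at 260.3 and Gpx3 at 258, and neighbours in that order differed by less than their spread. The order also depends on the annotated exon lengths, such as 3788 bases for Sparc and 5838 for Dcn. Sparc (ENSMUSG00000018593, chromosome 11, 55394500 to 55423183, minus strand), osteonectin, a collagen-binding protein of fibroblasts and endothelial cells, had 949, 2813, 1984, 1618, 258 and 2599 CPM. CD27+CD69+ libraries had 0 in 4 of 6, 15.9 CPM in replicate 4 and 224 CPM in replicate 6, below all CD27+CD69- libraries. Its log2 difference was 5.41 (SE 1.22, adjusted p = 0.0327). This call was lost in DESeq2, in limma-voom, in a fit to the 2 populations only, and without CD27+CD69- replicate 2, 3, 4 or 6 (adjusted p from 0.0514 to 0.219). Fn1, fibronectin, the adhesive ligand of integrins, had 154, 899.9, 525, 535, 295 and 542 CPM. CD27+CD69+ replicates 4 and 6 had 86.5 and 71.6 CPM, and the log2 difference of 4.24 (SE 1.27, adjusted p = 0.16) did not pass. It passed in limma-voom (adjusted p = 0.00368). Without those 2 libraries it also passed, against 0 counts (9.22e-06), but they held all its counts in CD27+CD69+, so that call carries no weight. Fstl1, follistatin-like 1, a secreted glycoprotein of mesenchymal cells, had 293, 684, 611, 272, 42 and 355 CPM and rose by a log2 difference of 7.39 (SE 0.76, adjusted p = 2.91e-06). Fbn1, fibrillin, the core of elastic microfibrils, averaged 197 ± 159.9 CPM, with 0 counts in all other populations and in CD27+CD69- replicate 5, and did not pass without the filter (adjusted p = 0.124).

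Matrix metalloproteinases cut collagen, and TIMPs inhibit them. Mmp2, gelatinase A, had 44.6, 308, 286, 79.1, 31.7 and 237 CPM and 0 counts in CD27+CD69+ libraries, and was at least 702-fold higher (adjusted p = 7.37e-06). Mmp14, the membrane enzyme that activates the MMP2 protein, averaged 66.7 ± 23.8 CPM, with the smallest spread relative to its mean of all members, and rose with a log2 difference of 7.47 (SE 0.78, adjusted p = 6.67e-06). Timp1 had 27.1, 79.8, 270.3, 91.9, 25.7 and 92.4 CPM, with replicate 3 far above the rest. CD27+CD69+ libraries had 22 CPM in replicate 6, 1.1 in replicate 4 and 0 in the others, and the log2 difference of 4.66 (SE 1.19, adjusted p = 0.0628) did not pass. It passed in limma-voom and without CD27+CD69- replicate 5 (adjusted p = 0.00659 and 0.0483). It also passed without CD27+CD69+ replicates 4 and 6 (0.000734), but these held all its counts there, so that call carries no weight. Timp2 had 170.1, 505, 249, 109, 119.7 and 324 CPM in CD27+CD69- libraries and was counted in every library of the study. Timp3, a TIMP bound to matrix, averaged 20 ± 18.6 CPM and was highest in replicate 5, at 51.9 CPM. It did not pass without the filter (adjusted p = 0.505). Without CD27+CD69+ replicates 4 and 6 it was called, but replicate 6 held all its counts there, so that call carries no weight.

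Secreted binding proteins, serpins and enzymes summed to 2146 ± 1757 CPM in CD27+CD69- libraries, set beside 6.3 ± 11.4 CPM in CD27+CD69+. Of the 6 tested, 5 rose, beside 1.28% of all genes. Serping1, the C1 inhibitor of complement, had 108, 1049, 2187, 158, 10.7 and 664 CPM and 0 counts outside this population. It was at least 2970.3-fold higher by that bound but did not pass (adjusted p = 0.107), whereas it passed in DESeq2 (1.31e-06) and without CD27+CD69- replicate 5 (0.0364). Gpx3, secreted glutathione peroxidase, had 394, 632, 1241, 271, 0 and 271 CPM and was at least 1997-fold higher than in CD27+CD69+ (adjusted p = 0.000524). Serpina3n, a protease inhibitor induced in inflammation, had 45.5, 271, 651, 467, 392 and 737 CPM, low in replicate 1 and high in replicates 3 to 6. It rose with a log2 difference of 6.66 (SE 0.89, adjusted p = 0.00036), and reads shared with its Serpina3 neighbours cannot be assigned with certainty. Serpinf1 (PEDF, an inhibitor of vessel growth), Sod3 (extracellular superoxide dismutase) and Igfbp7 (an IGF-binding protein of vessels and fibroblasts) averaged 233 ± 183, 175 ± 152 and 107 ± 107 CPM and rose (adjusted p = 0.000181, 0.00322 and 0.000256). Igfbp4, another IGF-binding protein, averaged 39.5 ± 38.1 CPM, and passed without the filter (adjusted p = 0.0406).

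Of the 10 receptors and membrane proteins, 8 were tested and 5 rose, beside 1.28% of all genes: Cd34, Cav1, S100a16, Anxa3 and Adgrd1. Cd34 (ENSMUSG00000016494, chromosome 1, 194938819 to 194961279, plus strand), a sialomucin of fibroblasts and vessel endothelium, had 119, 389, 292, 130.4, 57.9 and 271 CPM and 0 counts in the other populations. It was at least 896-fold higher than in CD27+CD69+ libraries (adjusted p = 1.75e-05). Anxa3, a membrane-binding annexin, had 95, 414, 373, 164, 23.2 and 289 CPM and 0 counts in CD27+CD69+, at least 966-fold (adjusted p = 0.000524). Cav1, the main caveolar coat protein, had 130.3, 43.3, 19.3, 33.8, 21.4 and 129 CPM and none elsewhere, at least 268-fold (adjusted p = 0.000501). S100a16, a calcium-binding protein, averaged 134 ± 64.7 CPM against 2 counts in CD27+CD69+, a ratio of 868 (95% interval of counting error alone from 239.8 to 7172). The PDGF receptors mark fibroblasts and pericytes, and their mean levels were 2.81 CPM per kilobase of exon for Pdgfra and 0.689 for Pdgfrb. Pdgfra had 13.1, 31.9, 76.6, 14.2, 0 and 33 CPM, at least 120.0-fold against 0 counts. It missed the filter of the main fit and passed without it (adjusted p = 0.0025). It was also called without CD27+CD69+ replicates 4 and 6. Pdgfrb had 9.69, 4.56, 7.05, 1.35, 0 and 0 CPM from 47 counts and did not pass (adjusted p = 0.0951 without the filter, at least 16.1-fold).

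Thy1 and Timp2 were the exceptions to the pattern, with counts in all 24 libraries. Thy1 encodes CD90, a surface protein of fibroblasts that mouse T cells and many mouse innate lymphocytes also carry. It was highest in CD27+CD69+ libraries at 109 ± 18.9 CPM, followed by 74.6 ± 30 in CD27+CD69-, 50.1 ± 12.2 in CD11b+CD69+ and 24.2 ± 10.5 in CD11b+CD69-. In CD27+CD69- replicates 1 to 6 it had 46, 119, 92.1, 89.2, 57.9 and 43.7 CPM, and it was the tested member with a negative log2 difference from CD27+CD69+, -0.54 (SE 0.27, adjusted p = 0.461), which did not pass. Between CD27+CD69+ and CD11b+CD69+ libraries it was the 1 member called, with a log2 difference of 1.12 (SE 0.27, adjusted p = 0.0219), where 0.968% of all genes were called higher. Between CD11b+CD69+ and CD11b+CD69- libraries it was again the 1 member called, at 1.04 (SE 0.27, adjusted p = 0.0345), beside 1.66% of all genes. That call was lost without the filter, in limma-voom and in a fit to the 2 populations (adjusted p = 0.0618, 0.0678 and 0.0837). Against CD11b+CD69- it rose in CD27+CD69- libraries by 1.62 (SE 0.28, adjusted p = 0.000166). Timp2 had 246 ± 151 CPM in CD27+CD69-, 123 ± 28.7 in CD11b+CD69-, 54.8 ± 14.1 in CD11b+CD69+ and 30.2 ± 17.5 in CD27+CD69+ libraries. It rose against CD27+CD69+ by 3.02 (SE 0.36, adjusted p = 8.55e-06) and against CD11b+CD69- by 1.00 (SE 0.33, adjusted p = 0.0466), and the second call was near the threshold. It was lost without the filter, in limma-voom, in a fit to the 2 populations and without CD27+CD69- replicate 2, 3 or 6 (adjusted p from 0.0586 to 0.217). In CD11b+CD69+ it was lower than in CD11b+CD69-, with no overlap between the 6 and 6 libraries, and did not pass, at -1.17 (SE 0.34, adjusted p = 0.0589). Without these 2 genes the members summed to 10722 ± 6770.3 CPM in CD27+CD69-, 112 ± 189 in CD27+CD69+, 11.5 ± 7.72 in CD11b+CD69- and 16.6 ± 8.69 in CD11b+CD69+ libraries.

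**Figure D2:**
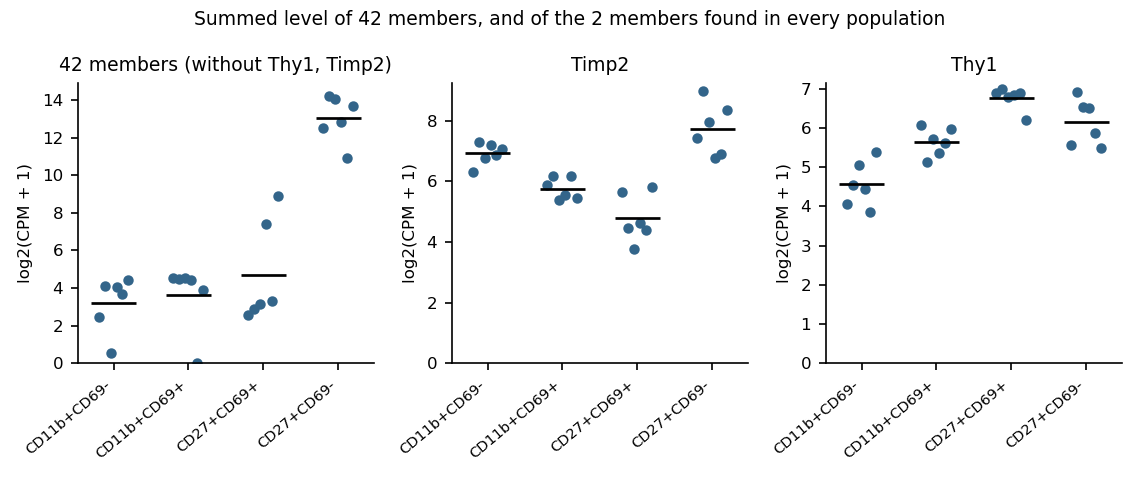
Points are libraries and short lines are means of log2(CPM + 1), 6 libraries per population, for the sum of the 42 members other than Thy1 and Timp2 and for those 2 genes. All 6 CD27+CD69- libraries lie above the others in the 42-member sum, whereas Thy1 is highest in CD27+CD69+ and Timp2 is counted in all 4 populations.

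Whether the difference by CD69 itself differed between CD27+ and CD11b+ cells was tested in the same fit. The test called 5 of 30 members, where 0.351% of all genes were called in this direction. They were Lama4, Lamb1, S100a16, Anxa3 and Adgrd1, with adjusted p = 0.00249, 0.0129, 0.000765, 0.0172 and 0.0102. In CD11b+CD69+ libraries these 5 had counts in 1 to 3 of 6 libraries, with means of at most 2.34 CPM, so the CD11b+ side of each test rests on those few libraries. They passed the filter mainly through CD27+CD69- libraries, so these calls carry no weight beyond the values. Members with 0 counts in both CD11b+ populations had no CD11b+ difference to compare with, and a missed threshold there says nothing.

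The members did not vary as 1 block over the 6 CD27+CD69- libraries. Of the 43 members other than Col3a1, 25 followed Col3a1 with r of at least 0.8 on log2(CPM + 1), 13 had r from 0 to 0.8, and 5 had r under 0. The first group holds the other fibrillar collagens, Dcn, Lum, Fbn1, Fstl1, Gpx3, Serpinf1, Pdgfra and Cd34. The 5 with r under 0 were Timp3, Mpzl1, Cav2, Igfbp4 and Serpina3n. The high r rests in part on replicate 5, where 15 members had 0 counts: over the other 5 libraries 17 of 43 had r of at least 0.8 and the median r moved from 0.859 to 0.732. These correlations are over few libraries that share their depth and normalization, and are given as a description. Replicate 2 was the highest library for 24 members and replicate 3 for 11.

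Mpzl1 and Cav2 had the opposite layout. Mpzl1 (ENSMUSG00000026566, chromosome 1, 165592240 to 165634538, minus strand), a cell-surface glycoprotein of the myelin protein zero family, had 4.36, 5.47, 5.17, 402, 435 and 419.9 CPM in replicates 1 to 6. Replicates 4, 5 and 6 were high and replicates 1, 2 and 3 low, and 98.8% of its summed CPM lay in replicates 4 to 6. Cav2, caveolin 2, had 4.85, 5.02, 1.41, 172, 73.8 and 179.8 CPM and 97.4% there. For Timp3, Igfbp4 and Serpina3n this share was 78.8, 64.9 and 62.2%, and for Col3a1 and Dcn it was 27.8 and 30.1%. Melanoma marker genes had 37.3, 1.37, 8.46, 303, 211 and 5974 CPM in the same libraries and were thus also highest in replicates 4, 5 and 6, although by far the most in replicate 6. In CD27+CD69+ libraries Mpzl1 had 26.8 CPM in replicate 4, 50.1 CPM in replicate 6 and 0 counts in the others, and the melanoma genes had 1.2, 3.25, 4.5, 58.1, 1.79 and 65.4 CPM. The part of melanoma RNA in Mpzl1 and Cav2 was not tested. Against CD27+CD69+ neither passed, with log2 differences of 4.06 (SE 1.70, adjusted p = 0.386) and 3.36 (SE 1.22, adjusted p = 0.211), while both rose against CD11b+CD69- (adjusted p = 0.0258 and 0.00821). Both of the latter calls were lost in limma-voom (adjusted p = 0.103 and 0.098). In replicates 1, 2 and 3 Cav2 lay within its CD11b+CD69- range of 0 to 5.64 CPM, so its rise rests on replicates 4, 5 and 6.

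**Figure D3:**
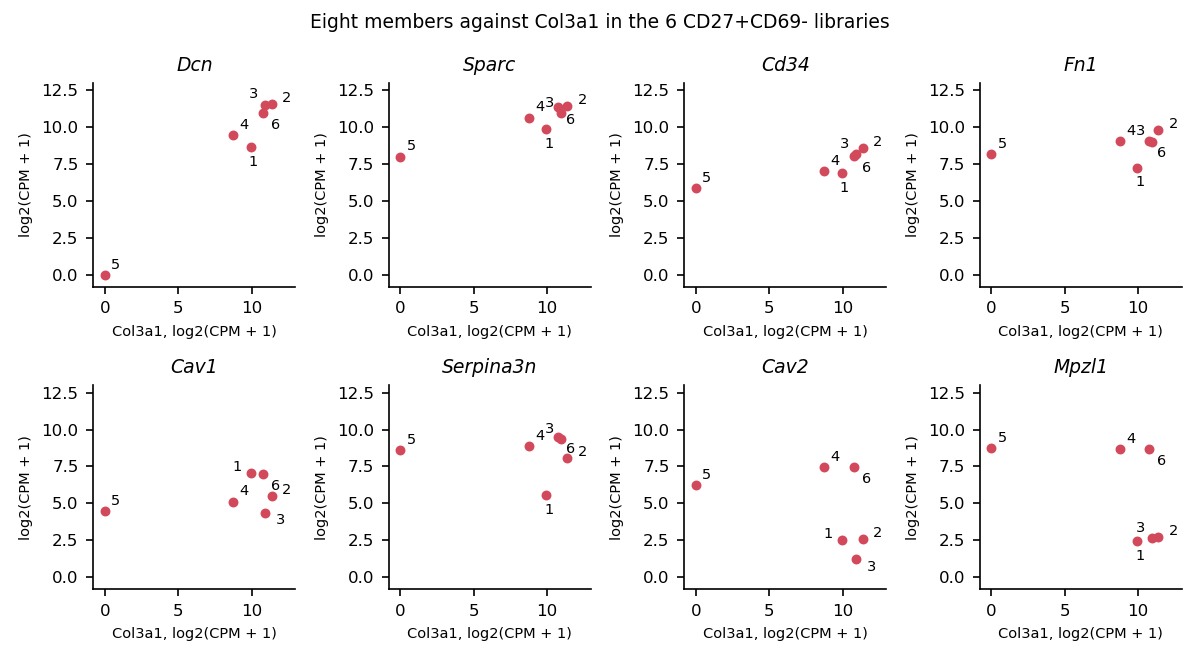
Each panel plots log2(CPM + 1) of 1 member against that of Col3a1, with points labelled by the replicate number of the 6 CD27+CD69- libraries. Dcn, Sparc and Cd34 rise with Col3a1, Fn1 and Cav1 are spread, and Mpzl1 and Cav2 separate replicates 4, 5 and 6 from 1, 2 and 3.

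Cav1 and Cav2 are neighbours 17219 bases apart on chromosome 6, on the same strand, and encode partners in the caveolar coat. Their layouts differed: Cav1 was highest in replicates 1 and 6, and Cav2 in replicates 4 and 6. Over the 6 libraries r with Mpzl1 was 0.97 for Cav2 and -0.05 for Cav1. The 2 promoter windows are printed because the genes are adjacent and their levels part. For Cav1 the upstream of 2 RefSeq entries is shown.
Cav1 promoter window, chr6:17306085-17306384, plus strand: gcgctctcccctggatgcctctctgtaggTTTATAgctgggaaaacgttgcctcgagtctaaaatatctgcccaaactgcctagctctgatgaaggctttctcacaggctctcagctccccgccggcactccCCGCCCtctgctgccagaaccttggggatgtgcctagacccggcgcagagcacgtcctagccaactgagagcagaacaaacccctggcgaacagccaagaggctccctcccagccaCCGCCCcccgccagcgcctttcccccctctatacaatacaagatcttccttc
Cav2 promoter window, chr6:17280935-17281234, plus strand: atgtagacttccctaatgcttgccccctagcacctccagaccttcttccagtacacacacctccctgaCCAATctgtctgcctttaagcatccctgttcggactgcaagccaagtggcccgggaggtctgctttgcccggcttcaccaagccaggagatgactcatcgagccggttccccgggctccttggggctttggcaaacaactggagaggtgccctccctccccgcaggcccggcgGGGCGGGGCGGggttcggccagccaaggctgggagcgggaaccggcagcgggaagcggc
The Cav1 window held 1 TATA box core and 2 GC box cores, all on the other strand. The Cav2 window held 1 CCAAT box and 2 overlapping GC box cores on the strand printed.

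Relations with Col3a1 were tested for 12 members and 9 genes of other cell types, and 17 of the 21 had counts in at least 4 libraries. By a two-sided exact permutation test over all pairings of the 6 libraries, 2 passed after adjustment over the 17. Cd34 had Pearson's r = 0.86 and Spearman's rho = 0.94, with exact permutation p = 0.00417 and 0.0167 and adjusted p = 0.0354 and 0.0944. Col1a1 had r = 0.98 and rho = 0.94, with the same exact permutation p-values. On linear CPM neither passed (exact permutation, adjusted p = 0.063 for both). No rho passed after adjustment, the lowest adjusted p being 0.0944, and 5 had an unadjusted p under 0.05. Dcn had r = 0.99 and Sparc r = 0.94 (exact permutation, adjusted p = 0.0551 and 0.0992). Without replicates 4 and 5, the 2 libraries farthest from the median of Col3a1, r was 0.99 for Cd34, 0.95 for Dcn, 0.91 for Sparc and 0.76 for Col1a1 over 4 libraries. For Col4a1 it went from 0.87 to -0.01 and for Col6a3 from 0.74 to -0.67, so those relations rest on replicates 4 and 5. Fn1, Cav1, Thy1, Timp1, Igfbp7 and Pdgfrb had r from 0.25 to 0.69 and did not pass. The same held for Pecam1 (-0.77), Pmel (0.21), Lyz2 (-0.15), Ncr1 (0.24) and Ptprc (-0.09), genes of endothelium, melanoma, macrophages, NK cells and leukocytes. Without replicates 4 and 5 several of these were also high: r was 0.98 for Fn1, 0.80 for Thy1, 0.89 for Ncr1, 0.79 for Pecam1 and 0.65 for Ptprc, so a high r over 4 libraries is not particular to the members.

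Marker genes of stromal cell types outside the members were read in the same libraries. Fibroblast markers had counts for 15 of 16 genes in CD27+CD69- libraries and summed to 711, 1793, 1288, 822, 0 and 829.9 CPM in replicates 1 to 6, against 1.3 ± 1.68 CPM in CD27+CD69+ libraries. They were present in 5 libraries and at 0 counts for all 16 genes in replicate 5. Mfap5, a microfibril gene, had 433, 1093, 603, 597, 0 and 472 CPM, and Dpt, dermatopontin, had 107, 337, 221, 62.2, 0 and 158 CPM. Col14a1, a fibril-associated collagen, and Scara5, a ferritin receptor of adventitial fibroblasts, averaged 55.1 ± 45.1 and 44.1 ± 36.8 CPM. Fap, the activation marker of tumour fibroblasts, had 14.1, 16.4, 22.6, 6.08, 0 and 19 CPM. Genes of inflammatory fibroblasts summed to 532 ± 625 CPM. C3, a complement protein, had 36.3, 298, 960.2, 38.5, 0 and 233 CPM, and Cxcl12, a chemokine, had 83.3, 137, 638, 40.5, 0 and 104 CPM, both highest in replicate 3. Cxcl1 and Ccl7, also chemokines, had 38.8, 7.3, 11.8, 2.03, 67.8 and 106 CPM and 29.1, 10.9, 125, 2.7, 0 and 64.3 CPM, and Il6, a cytokine, was highest in replicate 5 at 65.6 CPM. The list thus reached 133 CPM in replicate 5. The 8 contractile fibroblast genes summed to 393 ± 404 CPM, mostly Postn, periostin, at 274, 994, 97.8, 741, 0 and 153 CPM. Acta2, smooth muscle actin, had 48.9, 0, 0, 3.38, 0 and 0.825 CPM, and the collagens Col12a1 and Col11a1 had at most 13.5 and 12.8 CPM, both in replicate 4. The rest of this list was low or absent: Tpm2 had at most 10.5 CPM, in replicate 2, and Tagln at most 0.456 CPM. Cnn1 and Tnc had 0 counts in all 6 CD27+CD69- libraries. No gene of these 3 lists passed the filter of the main fit, so none was tested there.

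Pericyte and smooth muscle markers (13 genes) summed to 92.9 ± 40.7 CPM in CD27+CD69-, 54.8 ± 26 in CD27+CD69+ and 222 ± 33 in CD11b+CD69- libraries, mostly Kcnj8, a potassium channel, and Mcam, an adhesion molecule, both of which were also counted in CD11b+ libraries, and 0 of the 2 tested rose against CD27+CD69+. Kcnj8 had 56.7, 53.8, 82.7, 56.1, 9.87 and 15.7 CPM and Mcam 4.85, 0.912, 5.17, 66.9, 12.9 and 85 CPM. Among the genes that were low outside this population, Acta2 reached 48.9 CPM in replicate 1, Ndufa4l2, a mitochondrial protein, 40.9 CPM in replicate 3 alone, and Des, desmin, 6 CPM in replicate 5. The genes Rgs5, Notch3 and Higd1b had 0 counts in all 6 CD27+CD69- libraries, and Cspg4, Tagln, Abcc9, Myh11 and Cox4i2 had at most 1.35 CPM in any of them.

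Replicate 5, in which the fibroblast markers were at 0, differed in its endothelial markers. It had counts for 13 of 16 endothelial genes, where the other 5 CD27+CD69- libraries had 3 or 4. The list summed to 48, 137, 73.3, 75, 528 and 98.2 CPM. Plvap, a protein of endothelial fenestrae, had 0, 0, 0, 2.7, 166 and 5.77 CPM, and Emcn, endomucin, had 58.8 CPM in replicate 5 and 0 elsewhere. Vwf, von Willebrand factor, had 43.7 CPM and Esam, a junction protein, 36.5 CPM in replicate 5, and at most 0.485 CPM in the others. Among the 6 libraries, Kdr, Flt1, Egfl7, Sox18 and Cdh5 were counted in replicate 5 alone. Other genes of the list did not peak there: Tek, an angiopoietin receptor, had 0, 52, 9.4, 1.35, 21.4 and 41.2 CPM and Eng, endoglin, 2.42, 0.456, 0.94, 4.05, 8.15 and 9.07 CPM. Pecam1, which leukocytes also carry, was at 138 CPM there and 76.9 ± 27.1 CPM in CD27+CD69+ libraries. Of the 44 members 29 had counts in replicate 5. Those over 50 CPM were Mpzl1 (435 CPM), Serpina3n (392), Fn1 (295), Sparc (258), Timp2 (119.7), Cav2 (73.8), Cd34 (57.9), Thy1 (57.9), Timp3 (51.9) and S100a16 (51.9). The 15 at 0 included Col1a1, Col1a2, Col3a1, Dcn, Lum, Fbn1, Gpx3, Pdgfra and Pdgfrb. Whether the members in replicate 5 came from endothelial cells was not tested.

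**Figure D4:**
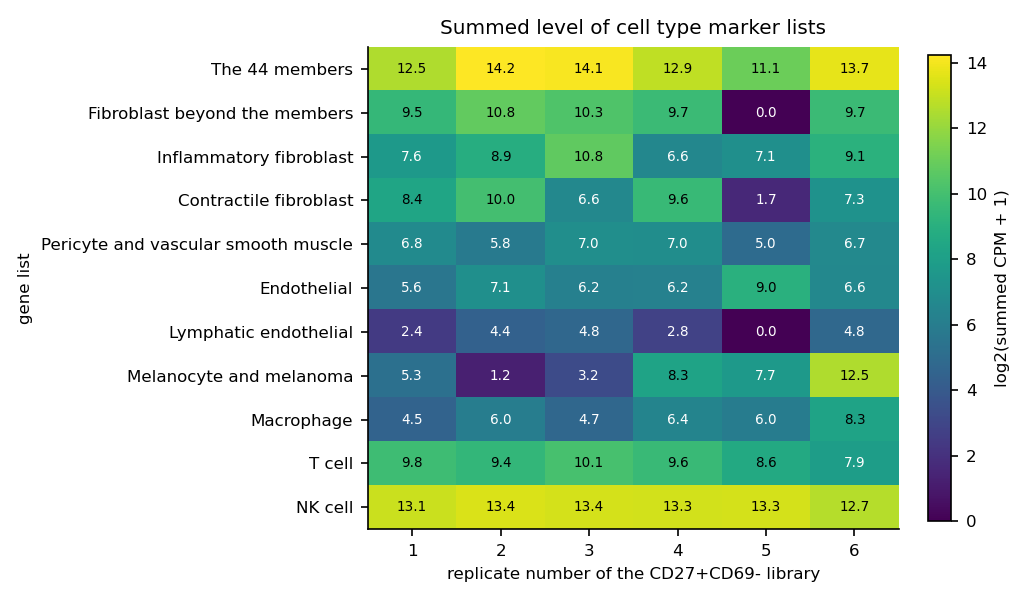
Summed level of the 44 members and of marker lists of other cell types in the 6 CD27+CD69- libraries, as log2(summed CPM + 1), printed in each cell. In replicate 5 the fibroblast list is at 0 and the endothelial list at its highest, and the melanoma list is highest in replicate 6.

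Genes of matrix structure and collagen assembly outside the members were also read in the same libraries. This list is not separate from those above. It shares Mfap5, Dpt, Col14a1 and Lox with the fibroblast list, and Postn, Col12a1 and Tnc with the contractile list. The list of 58 genes found summed to 2521, 6672, 4695, 3465, 674 and 5121 CPM in CD27+CD69- replicates 1 to 6, and 55 of them had counts there. Over all other lists the count of genes called against CD27+CD69+ went from 3 of 50 without CD27+CD69- replicate 6 to 28 of 72 without replicate 5. Calls over all genes in these fits were 124 of 10726 and 317 of 10838. Of the 17 tested in this list, 5 rose against CD27+CD69+ and 0 fell: Efemp2 (a fibulin of elastic fibres), Ecm1 (a matrix glycoprotein), Fbln2 (fibulin 2), Aebp1 (a collagen-binding carboxypeptidase-like protein) and Bmp1 (the procollagen C-proteinase), with adjusted p = 0.0161, 0.0387, 2.83e-05, 0.0201 and 0.00394. Against CD11b+CD69-, 11 of 17 rose and 0 fell. Over all genes tested, 1.28% were called higher against CD27+CD69+ and 7.74% against CD11b+CD69-. Genes such as Fbln2, which passed the filter only through CD27+CD69- libraries, had to differ, so these counts carry no weight beyond the values. The 4 genes of the list with the highest mean CPM were Efemp1 (fibulin 3) at 154, 1243, 793, 109, 0 and 1049 CPM, Mfap5, Postn and Ogn (osteoglycin, a small leucine-rich proteoglycan) at 80.4, 469, 333, 347, 0 and 239 CPM. None of these 4 had a count in replicate 5, and they missed the filter.

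Outside all lists, the genes whose log2 level over the 6 CD27+CD69- libraries was most like the median of the 30 tested members were ranked by Pearson's r among 8084 genes. Ly6a, the stem cell antigen Sca-1 of mesenchymal and activated lymphoid cells, came first at r = 0.998, with 392, 1522, 1509, 565, 75.5 and 834 CPM. It had 168 CPM on average in CD27+CD69+ libraries and did not pass (log2 difference 2.28, adjusted p = 0.0673). Gsn, gelsolin, an actin-severing protein, had r = 0.977 and rose (log2 difference 4.65, adjusted p = 0.0143). Rnase4, a secreted ribonuclease, had r = 0.976 and rose (log2 difference 7.96, adjusted p = 0.000678). Dpp4, a surface peptidase, had r = 0.973 and 141 CPM on average, and did not pass (adjusted p = 0.13). The other 11 of the 15 named by rank were Hpf1, Ntpcr, Dram1, Zbtb18, Tmem106a, Cby1, Slc27a4, Atg10, Ms4a4d, Cdk20 and S100a6, with r from 0.952 to 0.984. Among so many genes and 6 libraries, these values of r are a description only.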

How the data were processed

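RNA of 100 sorted cells per library was copied to full-length cDNA with the SMART-Seq v4 kit and made into Nextera XT libraries, per the labels' protocols. This chemistry keeps no strand and adds no molecular identifiers, so that floors and intervals speak for counting error alone. The authors deposited raw read counts per gene, without normalization. The submitters' processing notes name HTSeq, Picard and GRCm38, and the sources used here do not give the aligner or the annotation release. Of 53471 rows, 6 repeated an identifier with equal counts and were dropped.

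CPM were computed with edgeR 4.0.16 TMM factors. Tests used edgeR's quasi-likelihood fit (robust, 4 group means, 24 libraries, filterByExpr with minimum count 10) with Benjamini-Hochberg adjustment, in R 4.3.3. SE is the log2 difference over the square root of F. Alternatives were DESeq2 1.42.0, limma-voom 3.58.1, other scalings and filters, a fit to 2 populations, a replicate block and left-out libraries. Exact permutation tests went through all pairings of the libraries, with ranks from scipy 1.17.1. Libraries were grouped by title, and no 2 replicates agreed within counting error. Positions and exon lengths came from GENCODE M21 (GRCm38), where 13 members overlap another gene, 11 of them on the other strand, whose reads cannot be told apart. Of the matrix list, 2 of 60 symbols (Ccn1 and Ccn2) were not matched and are not analysed here.

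The rule named all 44 members and gave values in each CD27+CD69- library for the 3 of each role class with the highest mean CPM and 6 others. It also named the 4 genes of each other list with the highest mean CPM, of which the text gives only the lists it describes beyond their sum, and 15 genes by likeness. Members and lists were chosen with earlier results of these data known. The values per library of Col4a2, Cav2 and Fap, and the genes of the marker lists beyond 4, were chosen after their values were seen.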

Additional observations from a re-analysis of the deposited data

Results flagged for a closer look

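Within populations of 6 libraries, 62 sets of values were checked for a library that stood apart, and 12 had one. The bound used gives about 1 in 20 by chance for normally distributed values. Levels with many zeros are not such values, so the rates are not compared. A set with counts in 1 library alone, as for the red cell and neutrophil lists, is flagged by construction. Among the members, Timp1 was at 270.3 CPM in CD27+CD69- replicate 3, next to 92.4 CPM in the nearest library. In CD27+CD69+ replicate 6 stood apart for Sparc (224 CPM, nearest 15.9) and Timp1 (22, nearest 1.1), which were high, and for Thy1 (72.1, nearest 109), which was low.

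Among the marker lists in CD27+CD69- libraries, replicate 3 had the most inflammatory fibroblast RNA at 1752 CPM (nearest 544). Replicate 5 had the most endothelial RNA at 528 CPM (nearest 137) and adipocyte-list RNA, all Fabp4, at 83.2 CPM (nearest 7.3). Replicate 6 had the most melanoma RNA at 5974 CPM (nearest 303), macrophage-list RNA at 304 CPM (nearest 85.8, mostly Apoe), and 0.825 CPM of neutrophil genes, 1 count. It had the least pan-leukocyte RNA, at 6679 CPM (nearest 9694). Replicate 4 alone had red cell genes, at 282 CPM.

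In edgeR's quasi-likelihood test of whether the difference by CD69 differed between CD27+ and CD11b+ cells, 5 members were called, beside 0.351% of all genes. They were Lama4 (adjusted p = 0.00249), Lamb1 (0.0129), S100a16 (0.000765), Anxa3 (0.0172) and Adgrd1 (0.0102). All 5 were higher in CD27+CD69- than in CD27+CD69+ libraries and rested on few counts in CD11b+ libraries, so these calls carry no weight beyond the values.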

How the results depend on the processing

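Leaving out each CD27+CD69- library in turn gave 21 to 33 members called against CD27+CD69+ (22 with all), 27 to 38 against CD11b+CD69- (29), 1 each time between CD27+CD69+ and CD11b+CD69+ (1), 1 to 2 between CD11b+CD69+ and CD11b+CD69- (1), 5 to 7 for the difference of differences (5), 3 to 28 genes of the other lists (5 of 47 tested) and a mean summed level of 9367 to 12823 CPM. The high ends came without replicate 5, when more genes pass the filter, except between the CD11b+ populations, where 1 lower call was added without replicate 2 or 4. Over all genes, calls in either direction ran from 124 to 317 against CD27+CD69+ and from 1052 to 1500 against CD11b+CD69-. For the other comparisons no share over all genes was counted in these fits, and their counts are a description only. Of the 22 called members, 12 passed in each of these and the other settings named in the methods that tested them, the one added after seeing the data aside: Nid1, Lama4, Lamb1, Bgn, Mmp2, Mmp14, Timp2, Igfbp7, Cd34, S100a16, Cav1 and Anxa3. No tested member reversed direction, and scaling by library totals or DESeq2 size factors called the same 22. limma-voom called 16 members, and 13 of the 22 were among them. Without CD27+CD69+ replicates 4 and 6, chosen after seeing the data, there were 34, a count that carries no weight. DESeq2 called 3 members between CD27+CD69+ and CD11b+CD69+, 3 (2 of them lower) between CD11b+CD69+ and CD11b+CD69-, 16 for the difference of differences and 8 genes of the other lists. No share over all genes was counted for those member counts, which are a description only. Between CD11b+CD69+ and CD11b+CD69- the count was 0 without a filter, 0 with limma-voom and 2 (1 lower) among genes over 10 CPM, and in the fit to the 2 populations the 1 call was a lower one. For these too no share over all genes was counted. Against CD27+CD69+ the other lists had 40 of 172 tested genes called without a filter, 12 of 47 with limma-voom and 19 of 62 over 10 CPM. Calls over all genes in these fits were 405 of 24426, 280 of 10536 and 223 of 8349. On linear CPM 0 of 17 relations with Col3a1 passed, against 2 on the log scale. The cause of these shifts was not tested.

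The titles give each M number to 1 library of every population and do not say what it marks, so whether it pairs the libraries is not known. Same-numbered libraries correlated from -0.0292 to 0.208 over 36 pairs (median 0.00254). The other 180 pairs between populations ran from -0.149 to 0.13 (median -0.000852). Of 24 libraries, 5 correlated best with their own number. With the replicate number as a block, 25, 28, 2, 1 and 6 members were called in the 5 comparisons. Calls over all 10536 genes were 256 against CD27+CD69+ and 1273 against CD11b+CD69-. For the other comparisons no share over all genes was counted with the block, and their counts are a description only. Against CD27+CD69+ the block added Timp1, Serping1 and Mpzl1 (adjusted p = 0.00675, 1.22e-05 and 0.00899), and against CD11b+CD69- Timp2 was not called (0.0794). Melanoma genes were highest in replicates 4 and 6 of both CD27+ populations. The block called 9 of 47 tested genes of the other lists against CD27+CD69+. The 4-library relations were too few for a test. A member under 3 counts in a library could not be told from 0.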
